A study of Arabidopsis thaliana with 6 samples.

Results

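Phosphoethanolamine N-methyltransferases were compared between leaves of the ka120 mutant and the wild type of Arabidopsis thaliana. The rule named 3 paralogous loci, AT1G73600, AT1G48600 (PMEAMT) and AT3G18000 (XPL1), and took the probe sets annotated to 1 of them alone. Such a probe set was found for 2 of the 3 loci, out of 13286 loci with a single-gene probe set on the array. XPL1 had none in the annotation used and is not analysed here. AT1G73600 was chosen by its log2 difference between ka120 and WT, among the 10 largest falls, so its own difference is a description and carries no test. PMEAMT was listed by its locus and not by its value.

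These enzymes make phosphocholine, the headgroup precursor of phosphatidylcholine, the main phospholipid of membranes outside the plastid. Methyl groups from S-adenosylmethionine are added one after another, starting from phosphoethanolamine. An enzyme of the family need not carry out every step, and the steps of each paralog were not examined here. Phosphocholine is then activated by a cytidyltransferase and joined to diacylglycerol by an aminoalcohol phosphotransferase, in the route known as the Kennedy pathway. XPL1 is the best studied of the 3 in Arabidopsis and was named for its root phenotype. PMEAMT takes its name from phosphomethylethanolamine, the substrate that already carries a methyl group.

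Transcript levels were measured on 3-prime expression arrays, with 3 arrays of Col-0 wild-type plants (WT) and 3 arrays of the ka120 mutant, each from a separate biological sample. KA120 (AT3G08960) is an importin-beta type nuclear transport receptor, and the labels do not name the mutant allele. Both genotypes grew untreated on soil at 22 degrees C with 12 h of light and 12 h of dark. The study design describes whole rosettes of 3-week-old plants, whereas the tissue label and growth protocol describe mature leaves after 4 weeks. Values are log2 levels per probe set, and the number of arrays limits their precision. In such bulk tissue, fewer cells of a type and less RNA per cell cannot be told apart.

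The KA120 probe set read 4.55, 4.34 and 4.42 in WT against 3.65, 4.12 and 4.17 in the mutant. Its log2 difference was -0.45 (SE 0.14, limma adjusted p = 0.0222), and the call was lost without ka120 replicate 1 or WT replicate 1 and when arrays were scaled on the added hybridization controls, so the probe set is a poor check of the genotype. Of 8 planned leaf mesophyll markers 5 were measured, all above percentile 99 of probe sets. Their mean level lay between 11.76 and 11.79 on the ka120 arrays and between 12.20 and 12.32 on the WT arrays (log2). Of these 5 markers 4 were lower in ka120, the photosystem I subunit PSAN by most, with a log2 difference of -0.82. Of 6 planned guard cell and epidermis markers 3 were measured: TRY, a regulator of trichome patterning, was lower, with a log2 difference of -1.07 (adjusted p = 4.2e-05, limma), and the stomatal lineage genes FMA and SPCH gave -0.040 and -0.22 and were not called. The part of these shifts in the results below was not tested. None of the planned root, flower, seed and vascular markers, 0 of 15, had a single-gene probe set in the annotation used. Measured means having such a probe set throughout, so this count says nothing about their expression. The meristem gene CLV3 was dim, at percentiles 20.5 in ka120 and 23.1 in WT. At an adjusted p of 0.05 (limma, Benjamini-Hochberg over all probe sets), 2050 of 13286 loci, or 15.4%, were lower in ka120 and 2324, or 17.5%, were higher.

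AT1G73600 was bright in WT and much lower in ka120. The WT arrays gave 10.26, 10.33 and 10.45 and the ka120 arrays 7.85, 7.68 and 7.71 (log2 levels). The 2 groups were far apart, and the arrays within each group lay close together. The mean log2 level was 10.35 ± 0.10 for WT and 7.75 ± 0.09 for ka120 (SD, n = 3 arrays per genotype). The log2 difference was -2.60 (SE 0.10), which is a level 6.06-fold lower in ka120. In rank among all probe sets, AT1G73600 went from percentile 98.4 in WT to 87.1 in ka120, so the ka120 level was still well above the array median. Among named loci whose 3 ka120 arrays lay below the 3 WT arrays, this was the sixth largest fall. At the edge of the rule, AT5G66740 was the last locus inside, with a log2 difference of -2.45, and AT4G02850 the first outside, with -2.43.

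PMEAMT was also lower in ka120, by a smaller step. Its WT arrays gave 9.65, 9.75 and 9.85 and its ka120 arrays 9.10, 8.76 and 9.17 (log2 levels). No ka120 array reached the WT range, and ka120 replicate 2 stood below the other ka120 arrays. The mean log2 level was 9.75 ± 0.10 for WT and 9.01 ± 0.22 for ka120 (SD, n = 3 arrays per genotype). The log2 difference was -0.74 (SE 0.12, 95% interval -1.003 to -0.48, limma adjusted p = 0.000502), or 1.67-fold lower. A step of this size was not rare: 638 loci had a more negative difference, and 15.4% of loci were called lower. Both measured paralogs thus lay lower in ka120, a direction that for AT1G73600 was set by the choice of the gene. Complete separation of the ka120 arrays below the WT arrays was seen in 21.8% of loci.

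**Figure D1:**
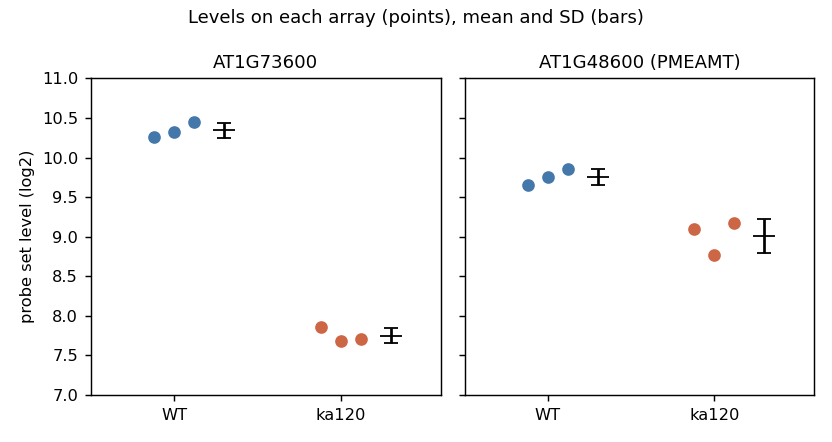
Probe set level (log2, vertical axis) of AT1G73600 and PMEAMT on each WT and ka120 array. Points are single arrays and bars give the mean and SD of 3 arrays. The ka120 points of AT1G73600 sit between 7.68 and 7.85 against 10.26 to 10.45 in WT, and those of PMEAMT between 8.76 and 9.17 against 9.65 to 9.85. Levels of different probe sets are not comparable with each other.

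The 2 paralogs differed in the size of their change. The change of AT1G73600 exceeded that of PMEAMT by -1.86 on the log2 scale (SE 0.11 over the arrays, n = 3 per genotype). No test is given for this contrast, since AT1G73600 was picked for its fall. The residual SD of AT1G73600 was 0.09, at percentile 28.8 of all probe sets, and that of PMEAMT was 0.17, at percentile 74.3. In WT both genes had an SD of 0.10. The gap lay in ka120, at 0.09 for AT1G73600 and 0.22 for PMEAMT, whose ka120 replicate 2 was low. This difference in spread was not tested. The difference of AT1G73600 stood in the far tail of all loci and that of PMEAMT in the shoulder of the distribution.

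**Figure D2:**
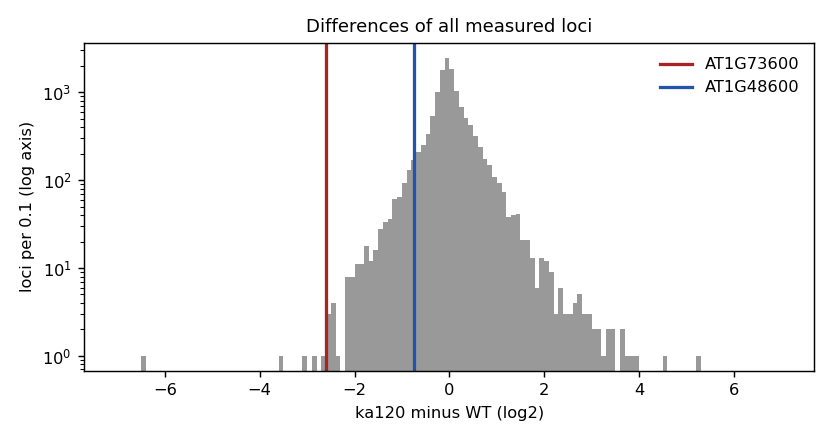
Log2 difference between ka120 and WT (horizontal axis) of all 13286 measured loci, as the number of loci per bin on a log axis. Vertical lines mark AT1G73600 at -2.60, with 5 loci further to the left, and PMEAMT at -0.74, with 638 loci further to the left.

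Both loci lie on chromosome 1, and AT3G18000 lies on chromosome 3 in the TAIR10.1 gene table. Of the 8 nearest measured loci around these 2 genes, 3 rose and 0 were called lower, beside 17.5% of all loci called higher and 15.4% called lower. Of the 4 nearest measured loci around AT1G73600, AT1G73620 rose, by 0.92 on the log2 scale (adjusted p = 0.000209, limma). The other 3, AT1G73560, AT1G73570 and AT1G73610, gave log2 differences of -0.12, -0.21 and 0.08 and were not called. Around PMEAMT, AT1G48570 and AT1G48580 rose by 0.65 and 0.50 on the log2 scale (adjusted p = 0.000369 and 0.00166, limma), while AT1G48610 and AT1G48640 gave -0.11 and -0.09 and were not called. The small negative values of AT1G73560, AT1G73570, AT1G48610 and AT1G48640 became positive when arrays were centred on the hybridization controls, and AT1G73570 was called lower after median centring (-0.33, adjusted p = 0.0166). AT1G73610 was called higher under that control centring (0.31, adjusted p = 0.0397) and after removal of a level-dependent offset of the controls (0.52, adjusted p = 0.000876). Removing that offset also left AT1G73560, AT1G48610 and AT1G48640 called higher (adjusted p = 0.0318, 0.028 and 0.0244). These loci and AT1G73610 were dimmer than the dimmest control, BIOB (log2 level 7.50), and were shifted by its value alone.

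The Kennedy pathway was examined next, with 5 of 15 planned genes measured: 2 choline and ethanolamine kinases, which act beside the methyltransferases in making headgroup phosphates, and 3 enzymes of the later steps. The last enzyme and 1 kinase were lower in ka120, and 1 of 2 cytidyltransferases was higher. By count 2 of 5 fell and 1 rose, where 32.9% of all loci were called in either direction. This balance changed with the scaling. Under quantile normalization and under median centring 3 fell and 0 rose. On the hybridization controls 2 fell and 2 rose, and with the level-dependent offset 0 fell and 2 rose. The median log2 difference of the 5 genes was -0.39, against -0.03 over all loci.

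AAPT2 (AT3G25585), an aminoalcohol phosphotransferase that completes phosphatidylcholine, gave 7.10, 7.20 and 7.31 in WT and 6.58, 6.23 and 6.69 in ka120 (log2 levels). The groups did not overlap, and ka120 replicate 2 was again the lowest array. AAPT2 fell by 0.70 on the log2 scale (SE 0.12, adjusted p = 0.00101, limma). CEK2 (AT1G74320), a member of the choline and ethanolamine kinase family, gave 5.62, 5.94 and 5.97 in WT and 5.11, 4.91 and 5.30 in ka120 (log2 levels). It fell by 0.73 on the log2 scale (SE 0.13, adjusted p = 0.000962, limma), again with all ka120 arrays below WT, as in 21.8% of loci. Removing a level-dependent offset of the hybridization controls ended both calls, at -0.27 for AAPT2 (adjusted p = 0.0829) and -0.29 for CEK2 (adjusted p = 0.0569). Both genes were dimmer than all the controls, so the offset removed was that of BIOB alone, a log2 difference of -0.44.

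CEK3 (AT4G09760), of the same kinase family, gave 6.09, 6.67 and 6.60 in WT and 6.06, 6.05 and 6.09 in ka120 (log2 levels). WT replicate 1 lay almost at the ka120 level, and the log2 difference of -0.39 just missed the threshold (adjusted p = 0.051, limma). Without WT replicate 1 it passed, at -0.57 (adjusted p = 0.00078). It also passed with arrays quantile-normalized or centred on their medians, without the dimmest 40% of probe sets, with array weights, with an intensity trend and with a replicate block (adjusted p = 0.0392 under the block). CEK3 was not called in the other fits that left out an array (adjusted p between 0.107 and 0.184, limma). On the hybridization controls it gave -0.16 (adjusted p = 0.343, limma), and with the level-dependent offset 0.052.

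CCT1 (AT2G32260) and CCT2 (AT4G15130) encode the phosphocholine cytidyltransferases, which use the product of the methyltransferases. CCT2 gave 5.57, 5.86 and 6.12 in WT and 6.23, 6.22 and 6.26 in ka120 (log2 levels). The ka120 arrays were tightly grouped and above a scattered WT group. CCT2 rose by 0.39 on the log2 scale (SE 0.13, adjusted p = 0.036, limma), in the opposite direction to the methyltransferases. This call was weak: it was lost under quantile normalization, median centring and 5 of the 6 fits that left out an array, at adjusted p between 0.0718 and 0.107. It was kept without WT replicate 3 (0.52, adjusted p = 0.00523, limma) and on the hybridization controls (0.61, adjusted p = 0.000502, limma). With the level-dependent offset CCT2 gave 0.82 (adjusted p = 1.86e-06, limma). CCT1 gave a log2 difference of 0.15 (95% interval -0.08 to 0.39, adjusted p = 0.298, limma) and was not called, although it passed as higher on the hybridization controls (0.38, adjusted p = 0.0137). CCT1 also passed with the level-dependent offset, at 0.59 (adjusted p = 0.000223, limma). Both genes were dimmer than all the controls, so that offset was the value of BIOB alone.

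Genes that handle the methyl donor were sparsely measured, 2 of 17 planned. HMT-1 (AT3G25900), a homocysteine S-methyltransferase that makes methionine, rose from 5.36 ± 0.16 in WT to 5.86 ± 0.07 in ka120 (log2 level, SD, n = 3 per genotype). Its log2 difference was 0.50 (SE 0.10, adjusted p = 0.00274, limma), where 17.5% of all loci were called higher. MMT (AT5G49810), which methylates methionine, gave 0.16 (adjusted p = 0.228, limma) and was not called.

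Other methyltransferases that use the same donor on small molecules also fell, 4 of 5 measured out of 12 planned, with a median log2 difference of -0.46. Over all loci 15.4% were called lower and the median was -0.03. CHLM (AT4G25080), the magnesium protoporphyrin methyltransferase of chlorophyll synthesis, gave 11.67, 11.68 and 11.64 in WT and 10.92, 10.99 and 10.90 in ka120 (log2 levels). These arrays barely varied within a genotype, and CHLM fell by 0.73 on the log2 scale (SE 0.08, adjusted p = 5.92e-05, limma). MENG (AT1G23360), which methylates the phylloquinone precursor, fell by 0.68 (adjusted p = 0.000125, limma). JMT (AT1G19640), the jasmonate methyltransferase, fell by 0.46 on the log2 scale (adjusted p = 0.00702, limma) at a dim level, from percentile 41.3 in WT to 32.6 in ka120. COQ5 (AT5G57300), of ubiquinone synthesis, fell by 0.30 on the log2 scale (adjusted p = 0.018, limma), a call lost without ka120 replicate 1 or 3 (adjusted p = 0.0529 and 0.0701). BSMT1 (AT3G11480), the benzoate and salicylate methyltransferase, was near the floor of the arrays, at percentiles 4.73 and 5.70, and gave -0.07 (adjusted p = 0.789, limma). Centring on the hybridization controls left 2 calls in this group, CHLM and MENG, and with the level-dependent offset CHLM was the 1 gene still called lower. BSMT1, near the floor, was called higher with that offset, at 0.37 (adjusted p = 0.0268, limma). That offset was smallest for the bright CHLM, which went to -0.63. MENG, dimmer than all the controls, went to -0.24 (adjusted p = 0.0926, limma). The change of PMEAMT, -0.74, was close in size to those of CHLM and MENG, and that of AT1G73600, -2.60, lay outside the range of all 16 measured pathway loci, which ran from -0.73 to 0.50 on the log2 scale.

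The betaine aldehyde dehydrogenases ALDH10A8 (AT1G74920) and ALDH10A9 (AT3G48170) belong to a family that in other plants acts on the aldehyde made from choline. ALDH10A8 rose from 8.97 ± 0.08 in WT to 9.35 ± 0.06 in ka120 (log2 level, SD, n = 3 per genotype), a difference of 0.37 (adjusted p = 0.00698, limma) that was not called after median centring (0.25, adjusted p = 0.0558). ALDH10A9 gave 0.19 (adjusted p = 0.141, limma). The lysophosphatidylethanolamine acyltransferases LPEAT1 (AT1G80950) and LPEAT2 (AT2G45670) gave -0.13 and -0.07 (adjusted p = 0.329 and 0.637, limma), with a sign that turned positive on the hybridization controls. No gene of the planned phospholipid turnover list (0 of 25) or phosphate starvation list (0 of 15) had a single-gene probe set in the annotation. Over all pathway lists 16 of 99 planned loci were measured, of which 3 rose and 6 fell in the deposited values. That is 9 of 16 called, beside 32.9% of all loci. The balance of directions depended on the scaling. After median centring HMT-1 alone stayed higher, and every other call in these lists was lower. With the level-dependent offset CHLM alone stayed lower, and every other call was higher, as were 15475 of the 16857 called probe sets.

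**Figure D3:**
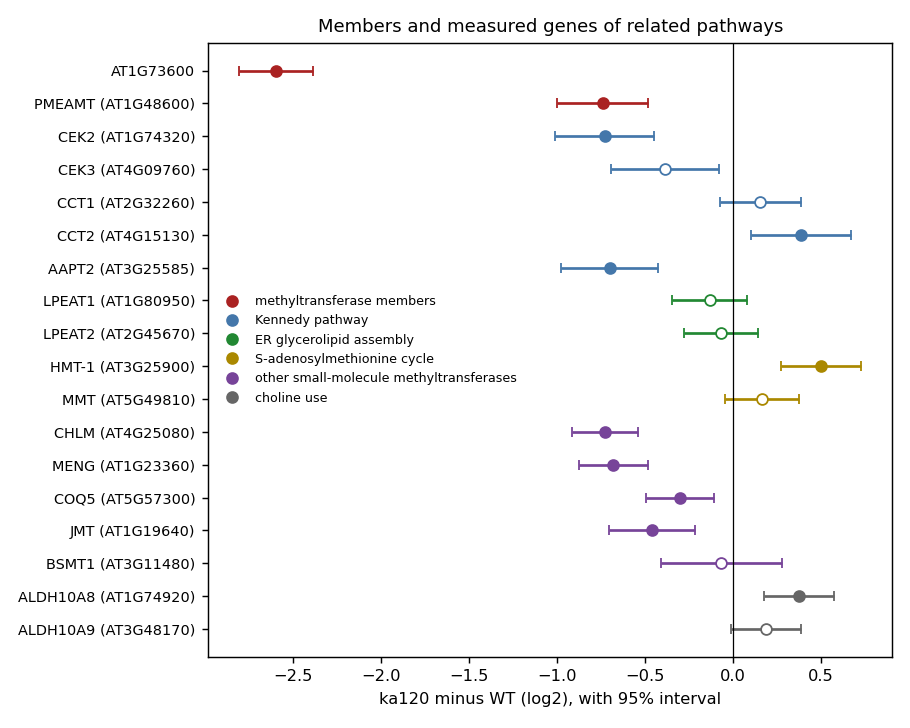
Log2 difference between ka120 and WT with its 95% interval for the 2 measured methyltransferase paralogs and the 16 measured loci of the pathway lists, coloured by list. Filled points passed an adjusted p of 0.05 and open points did not. AT1G73600 at -2.60 stands apart from the other loci, which lie between -0.74 and 0.50.

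The loci whose profile was nearest to each paralog were then ranked. Each profile was centred on its mean over the 6 arrays, and likeness was the root-mean-square distance on the log2 scale, over the other 13285 loci. The 5 loci nearest to AT1G73600 were AT5G66740, AT5G48490, AT2G29310, AT4G02850 and AT5G44530, at distances between 0.13 and 0.21. They share its large step, with log2 differences between -2.85 and -2.37, and Pearson's r with AT1G73600 was between 0.990 and 0.997 over the 6 arrays. These coefficients mostly restate the gap between the genotypes. Of these 5 loci, 3 to 4 stayed among the 5 nearest when an array was left out.

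The locus nearest to PMEAMT among all 13285 was AAPT2, the phosphotransferase of the same pathway described above. Their distance was 0.026 on the log2 scale, less than the residual SD of either gene, and r was 0.998 over the 6 arrays. Both residual SDs take in the low ka120 replicate 2, and this r too mostly restates the gap between the genotypes. AT1G20540 and NQR (AT1G49670) followed, at distances of 0.044 and 0.049 and with r of 0.9945 and 0.9941. AAPT2 stayed nearest under quantile normalization and without any 1 of ka120 replicate 3 and the 3 WT arrays. It ranked 2 without ka120 replicate 1 and 7 without ka120 replicate 2, the array on which both genes were lowest. PMEAMT, AAPT2 and CEK2 ranked the 6 arrays in the same order, as did 101 of 13286 loci (0.76%) and 83 of the 2050 loci called lower (4.05%), counting PMEAMT itself. This comparison of array orders was chosen after the values were seen. By root-mean-square distance PMEAMT ranked 616 of 13285 in nearness to AT1G73600, at a distance of 0.93. In the other direction, at that same distance, AT1G73600 ranked 12936 of 13285 in nearness to PMEAMT.

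**Figure D4:**
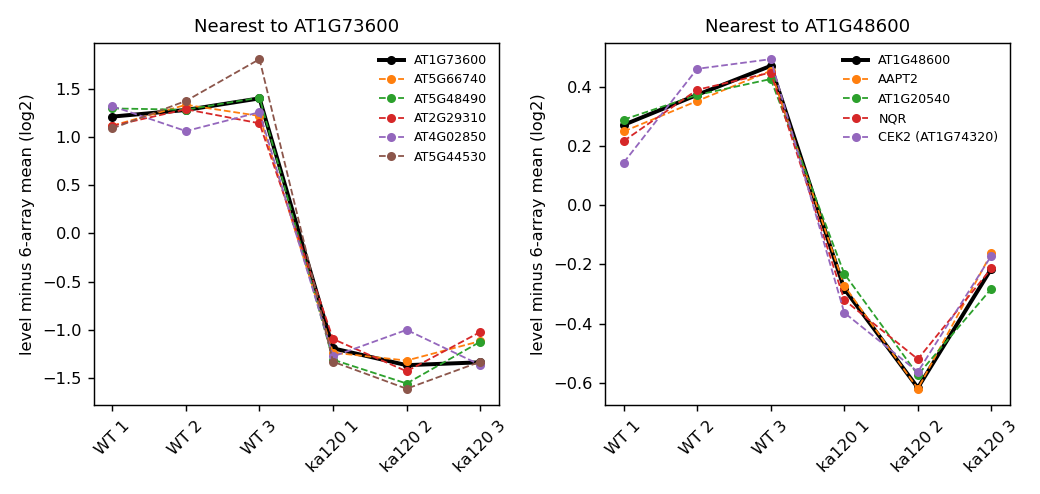
Log2 level on each array minus the mean over the 6 arrays. The left panel shows AT1G73600 (thick line) and its 5 nearest loci, and the right panel PMEAMT (AT1G48600, thick line), its 3 nearest loci and, for comparison, the kinase gene CEK2, which was not among them. The AAPT2 line runs within 0.026 of PMEAMT on average (root mean square), with both lowest on ka120 replicate 2.

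Both methyltransferases stayed lower in ka120 under the 4 other scalings tried. AT1G73600 gave log2 differences between -2.72 and -2.33 and PMEAMT between -0.87 and -0.50 across these scalings. The median difference of all probe sets was -0.02 for the deposited values and -0.02 after quantile normalization, but -0.15 for arrays centred on their medians, 0.21 for centring on the hybridization controls and 0.41 once the level-dependent offset was removed. Relative to that median, AT1G73600 lay between -2.73 and -2.55 and PMEAMT between -0.90 and -0.65. The values -2.73 and -0.90 came with the level-dependent offset. It shifted dim probe sets, and so the median, more than these bright genes.

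**Figure D5:**
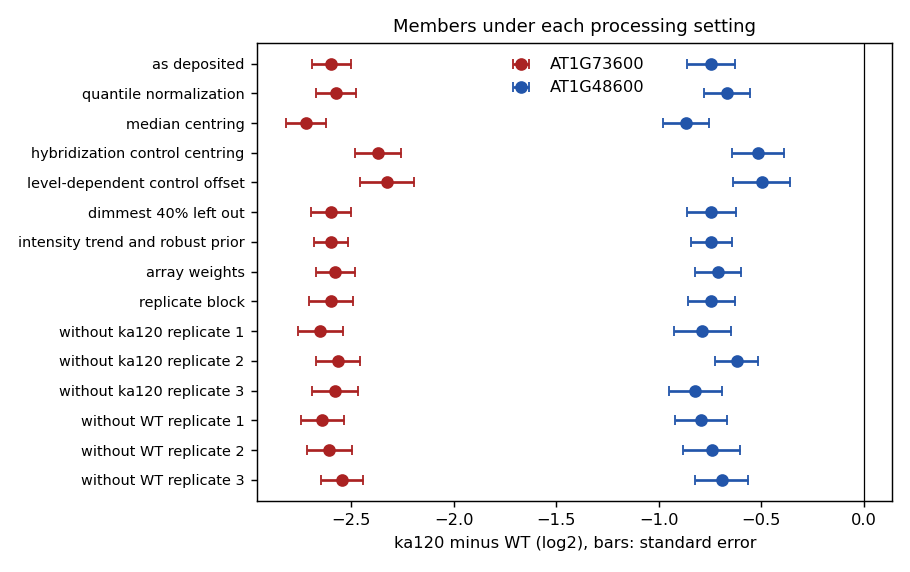
Log2 difference between ka120 and WT for AT1G73600 and PMEAMT (AT1G48600) under the deposited values and 14 other settings. Bars are standard errors. All points of AT1G73600 lie between -2.72 and -2.33 and all points of PMEAMT between -0.87 and -0.50.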

How the data were processed

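The values deposited by the authors are on a log2 scale, as their range shows, with 1 value for each probe set and array. Per the submitters' processing notes the affy package was used, and no source used here gives the background correction, the normalization or the summary method. The table held 22810 probe sets, and 64 array controls were left out. The platform annotation named 1 gene for 13513 probe sets, several for 503 and none for 8730, and 13436 matched the TAIR10.1 gene table by gene identifier. A locus was represented by its brightest probe set. All 22746 probe sets entered 1 fit of genotype in limma 3.58.1 (R 4.3.3; functions lmFit then eBayes, with no block and no filter), with Benjamini-Hochberg adjustment over all of them.

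The members, lists and rules were chosen with earlier results of these data known. The naming rule took the members, KA120, up to 3 called loci of each list in each direction, the 2 nearest measured loci on each side of a member, and the loci of nearest profile; the list loci that were not called, and the fourth lower methyltransferase COQ5, were added after their values were seen. Alternatives were 4 other scalings, leaving out the dimmest 40% of probe sets, a robust prior with an intensity trend, weights per array, the replicate number as a block, averaging the probe sets of a locus, and leaving out each array.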

Additional observations from a re-analysis of the deposited data

How the results depend on the processing

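PMEAMT was lower and called under each of the 14 alternatives (adjusted p between 3.89e-05 and 0.00299). AT1G73600 moved by more than its residual SD with arrays centred on their medians (-2.72) or on the hybridization controls (-2.37), and once the level-dependent offset was removed (-2.33). Median centring gave 6227 lower probe sets against 3760 as deposited. Hybridization control centring gave 7971 higher and 1955 lower, and the level-dependent offset 16857 called, 15475 higher and 1382 lower. As deposited, 4405 were higher and 8165 called in all. Under these 2 scalings the prior degrees of freedom went from 6.65 to 15.77 and 41.79. Both subtract the same few control values from many probe sets, so their errors are not independent and their adjusted p-values should be read with caution. Below its dimmest control, BIOB (log2 level 7.50), the level-dependent offset was held at that of BIOB, -0.44 between ka120 and WT. The array medians, 4.636 to 4.795, lay below that level, so most probe sets received this constant. Called members of a list became 2 for the methyl donor genes, 2 for the other methyltransferases and 2 for the betaine aldehyde dehydrogenases under both control-based scalings. For the other methyltransferases these were 2 lower on the hybridization controls, but 1 higher and 1 lower with the level-dependent offset. The betaine aldehyde dehydrogenases had 0 after median centring. The acyltransferase list, with 0 as deposited, had 2 with the level-dependent offset.

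With 1 array left out, AT1G73600 ran from -2.65 to -2.55, PMEAMT from -0.82 to -0.62, and calls from 6736 to 7878 (3667 to 4289 higher, 3061 to 3605 lower). The Kennedy pathway list ran from 2 to 3 and the other methyltransferases from 3 to 4.

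Signs turned as follows. On hybridization controls: LPEAT1 0.093, LPEAT2 0.16, BSMT1 0.16, AT1G73570 0.019, AT1G73560 0.11, AT1G48610 0.12, AT1G48640 0.14. With the level-dependent offset: CEK3 0.052, LPEAT1 0.30, LPEAT2 0.37, COQ5 0.13, BSMT1 0.37, AT1G73570 0.23, AT1G73560 0.32, AT1G48610 0.33, AT1G48640 0.35. AT1G73610 was -0.044 after median centring. With 1 array left out, BSMT1 ran from -0.23 to 0.10, AT1G48640 from -0.23 to 0.011 and AT1G73610 from -0.006 to 0.16. The cause was not tested.

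Arrays that share a number had deviations from their group means correlated at -0.01, -0.19 and 0.13, so the numbers were not taken to pair the arrays; with a replicate block AT1G73600 gave -2.60 (SE 0.11) and PMEAMT -0.74 (adjusted p = 0.000624), and CEK3 became called (adjusted p = 0.0392). Using the mean of a locus's probe sets could change none of the 34 loci named, since 0 had more than 1. XPL1 has no value under any setting.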
